A study of Mus musculus with 8 samples.

Results

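The interleukin-1, tumour necrosis factor and inflammasome genes followed here were 10 of the 37447 genes in a table of microglial RNA levels: Il1a, Il1b, Il1rn, Il18, Il6, Tnf, Tnfrsf1b, Nlrp3, Pycard and Casp1. Each was found by its gene symbol, each symbol matched 1 gene, and all 10 were among the 17753 genes tested. Microglia, the macrophages that live in the brain and optic nerve, had been flow sorted from the optic nerves of C57BL/6 mice aged 3 months. FF mice, the controls, carry Nf1 flox/flox, and FFC mice carry Nf1 flox/flox with GFAP-Cre, so both genotypes share the floxed alleles and FFC mice alone carry Cre, driven by the promoter of an astrocyte gene. Each genotype had 4 libraries, 2 from females and 2 from males. The comparison asks which transcripts of the sorted microglia differ between these genotypes. Cre is meant to remove Nf1 from astrocytes, and that loss was not measured here. The libraries are labelled as biological replicates, but the animals behind each are not stated, and p-values here measure only the spread between these libraries. Expression is given as FPKM, a fragment count divided by transcript length and by the mapped fragments of the library, and tests were run on log2(FPKM + 1).

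Interleukin-1 and tumour necrosis factor are the early cytokines of innate immunity, and microglia are a main source of both in the central nervous system. Interleukin-1α is active as it is made, whereas interleukin-1β and interleukin-18 are made as precursors that caspase-1 cleaves. Caspase-1 is activated on an inflammasome, in which a sensor such as NLRP3 recruits the adaptor ASC, the product of Pycard, and ASC recruits caspase-1. The interleukin-1 receptor antagonist, the product of Il1rn, occupies the receptor without signalling, and Tnfrsf1b encodes the second tumour necrosis factor receptor, TNFR2.

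The libraries differed in more than genotype. The summed FPKM ranged from 367760 to 700291, the genes listed at 0 from 12106 to 18383 per library, and the median Spearman correlation of a library with the other 7 from 0.398 (FF 2) to 0.597 (FFC 3). FF 2 and FF 4 had 4.23% and 3.5% of their FPKM in olfactory and vomeronasal receptor genes, against 0.708% to 1.62% in the other 6, so results are also given without these libraries. All 9 microglial markers examined, led by Csf1r and with Tmem119, P2ry12 and Cx3cr1 among them, were above 1 FPKM in all 8 libraries. Their summed FPKM was 2564, 949, 2764 and 1657 in FF libraries 1 to 4. In FFC libraries 1 to 4 it was 1817, 2483, 2424 and 3387, so FF 2 and FF 4 lay below every FFC library. The files hold no read counts, so the depth of a library is unknown. In sorted cells a lower share of cells expressing a gene and less RNA per cell cannot be told apart.

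The mean log2(FPKM + 1) of all 10 genes was higher in FFC than in FF microglia, and Il1a, Tnf, Tnfrsf1b and Pycard had no overlap between the genotypes. In each of these 4 genes the 4 FFC libraries lay above the 4 FF libraries. Of all tested genes, 3.05% were separated in that direction and 56.7% had a higher mean in FFC. At an unadjusted limma p under 0.05 the same 4 of 10 were higher and 0 were lower, where 4.52% and 1.94% of all tested genes were. None of the 10 passed after Benjamini-Hochberg adjustment over all genes, and 0% of the 17753 genes did (limma, 1146 genes at an unadjusted p under 0.05). The median difference of the 10 genes was 1.32 on the log2(FPKM + 1) scale, beside 0.19 for all tested genes. Since the genes were chosen with earlier results of these data known, these counts describe the set and do not test it.

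**Figure D1:**
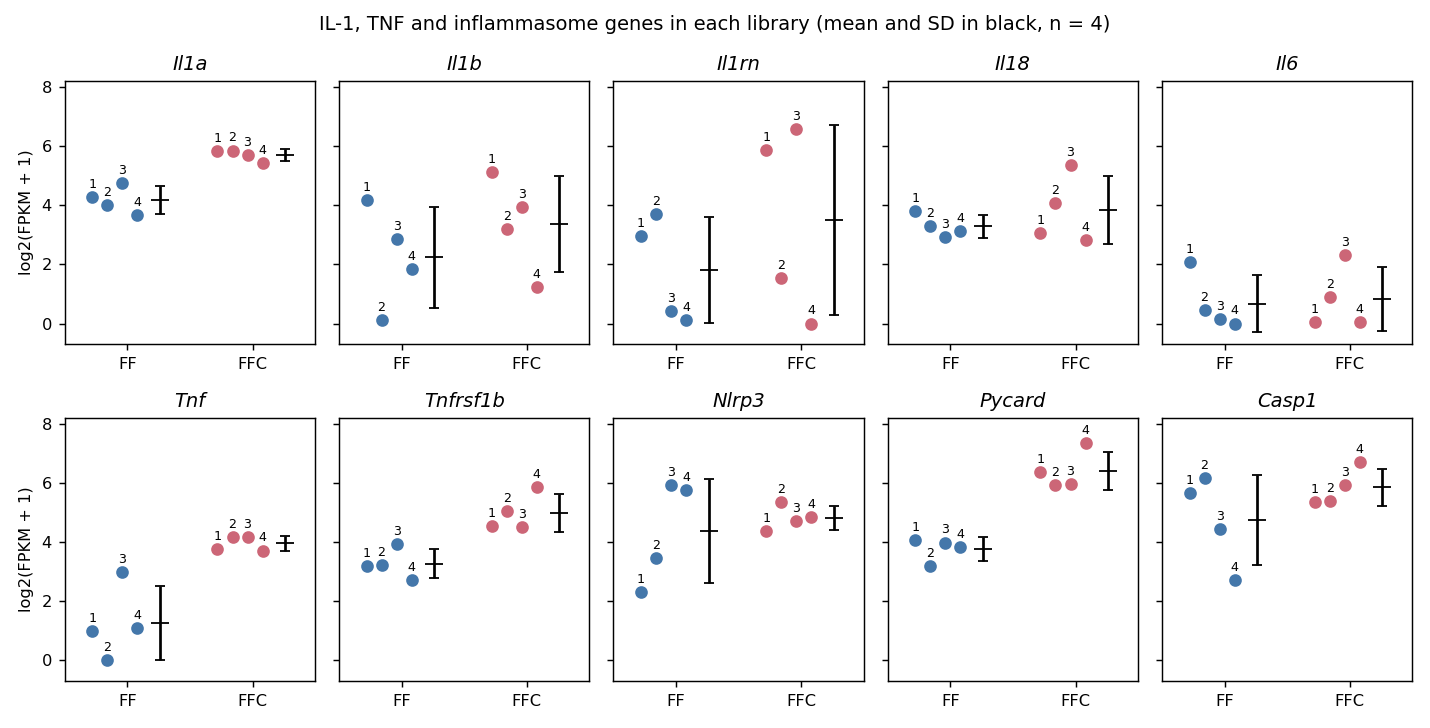
Level of each of the 10 genes, as log2(FPKM + 1), in the 4 FF (blue) and 4 FFC (red) libraries, numbered by replicate, with the group mean and SD in black. Il1a, Tnf, Tnfrsf1b and Pycard show no overlap between the genotypes, and the other 6 genes do.

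Among the cytokine ligands, Il1a (ENSMUSG00000027399, mm9 chromosome 2, 129125346 to 129135708) was 18.3, 15.1, 26.1 and 11.6 FPKM in FF libraries 1 to 4 against 55.4, 56.7, 50.9 and 42.2 FPKM in FFC libraries 1 to 4. The FFC libraries were close to each other, and the lowest of them was 1.62 times the highest FF library. The means were 17.8 ± 6.18 FPKM in FF against 51.3 ± 6.54 FPKM in FFC (SD, n = 4), and the log2 difference was 1.52 ± 0.59 (SE), a 2.88-fold change on the log2(FPKM + 1) scale. The exact two-sided permutation p was 0.0286, the smallest that 4 against 4 libraries can give, and the limma adjusted p over all genes was 0.712.

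Il1b (ENSMUSG00000027398, mm9 chromosome 2, 129190306 to 129196875), the other interleukin-1 agonist, did not separate the genotypes. It was 16.9, 0.094, 6.23 and 2.55 FPKM in FF libraries 1 to 4 against 33.5, 8.13, 14.5 and 1.33 FPKM in FFC libraries 1 to 4. FFC 1 was the highest, but FFC 4 was lower than 3 of the 4 FF libraries, and the log2 difference of 1.12 ± 1.05 (SE) had a limma adjusted p of 0.765. Without FF 2 and FF 4 that difference was -0.14. Without FF 2 alone it was 0.42.

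Il1a and Il1b are neighbours, 54597 bases apart, yet their levels were not alike across the libraries. Il1a was above Il1b in all 8 libraries, by a ratio of 1.08 in FF 1, 161 in FF 2, 4.19 in FF 3 and 4.56 in FF 4, and of 1.65, 6.97, 3.52 and 31.7 in FFC libraries 1 to 4. The log2 difference between the agonists was 1.93 ± 1.54 in FF and 2.33 ± 1.49 in FFC (SD, n = 4; exact two-sided permutation test, p = 0.714, or 0.857 after Benjamini-Hochberg adjustment for 7 gene pairs). Each gene overlaps a transcript on the same stretch, and use of strand in the counting is not stated by the labels. Gm14023, which overlaps Il1a, reached at most 7.25 FPKM, in FF 3, where Il1a was 26.1 FPKM. Gm14047, annotated as antisense to Il1b, reached at most 1.46 FPKM, in FF 4, where Il1b was 2.55 FPKM. Reads of each pair could be shared, and how the counting divided them was not tested.

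Il1rn (ENSMUSG00000026981, mm9 chromosome 2, 24192373 to 24207014), which encodes the natural antagonist of both agonists, had the widest spread of the 10 genes over the 8 libraries. It was 6.79, 12, 0.342 and 0.0875 FPKM in FF libraries 1 to 4 against 57.5, 1.93, 94.9 and 0 FPKM in FFC libraries 1 to 4, where FFC 4 is listed at 0. Among FFC libraries it was high in FFC 1 and FFC 3, while FFC 2 and FFC 4 lay below the 2 highest FF libraries. The log2 difference of 1.70 ± 1.42 (SE) had a limma adjusted p of 0.759 and moved from 0.67 without FFC 3 to 2.87 without FFC 4. The antagonist was above Il1b in FF 2, FFC 1 and FFC 3 and below it in the other 5 libraries.

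Il18 (ENSMUSG00000039217, mm9 chromosome 9, 50383378 to 50389942), the other cytokine that caspase-1 matures, was 13.1, 8.9, 6.51 and 7.72 FPKM in FF libraries 1 to 4 against 7.29, 16, 40 and 6.16 FPKM in FFC libraries 1 to 4. FFC 3 stood above all the others and FFC 4 below all of them. The log2 difference of 0.55 ± 0.76 (SE; limma adjusted p = 0.846) was 0.04 without FFC 3.

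Il6 (ENSMUSG00000025746, mm9 chromosome 5, 30339701 to 30346508), a cytokine that interleukin-1 and tumour necrosis factor induce, was the lowest of the 10 genes. It was 3.25, 0.367, 0.103 and 0 FPKM in FF libraries 1 to 4 against 0.0352, 0.844, 4.02 and 0.0418 FPKM in FFC libraries 1 to 4, so 1 library of each genotype was above 1 FPKM. The log2 difference of 0.16 ± 0.80 (SE; limma adjusted p = 0.967) turned negative without FF 3, FF 4 or FFC 3.

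Tnf (ENSMUSG00000024401, mm9 chromosome 17, 35336326 to 35338952), which encodes tumour necrosis factor, was 0.999, 0, 6.87 and 1.12 FPKM in FF libraries 1 to 4, with FF 2 listed at 0, and 12.5, 17, 16.9 and 12.1 FPKM in FFC libraries 1 to 4. The 4 FFC libraries lay in a narrow band, the lowest at 1.76 times the highest FF library. The log2 difference was 2.68 ± 0.82 (SE; exact two-sided permutation p = 0.0286; limma adjusted p = 0.651). Its size depends on the pseudocount, at 3.89 with 0.1 and 1.51 with 5, because 3 of the FF values are near 1 FPKM or below.

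Tnfrsf1b (ENSMUSG00000028599, mm9 chromosome 4, 144803366 to 144836773), the receptor that responds best to membrane-bound tumour necrosis factor, was 8.15, 8.36, 14.3 and 5.59 FPKM in FF libraries 1 to 4 against 22.3, 31.6, 21.6 and 57.7 FPKM in FFC libraries 1 to 4. FFC 4 was the highest, and the lowest FFC library was 1.51 times the highest FF library. The means were 9.11 ± 3.71 and 33.3 ± 16.9 FPKM (SD, n = 4), a log2 difference of 1.72 ± 0.67 (SE; exact two-sided permutation p = 0.0286; limma adjusted p = 0.712). Tnfrsf1b was above Tnf in all 8 libraries. Tnfrsf1a, the first tumour necrosis factor receptor, was 226, 31.5, 70.9 and 33.4 FPKM in FF against 71.8, 44.5, 61.7 and 69.8 FPKM in FFC. Its groups overlapped, at a log2 difference of -0.08 ± 0.68 (SE; limma adjusted p = 0.98).

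Of the 3 inflammasome genes, Pycard (ENSMUSG00000030793, mm9 chromosome 7, 135135617 to 135137381) had the widest gap between the genotypes of any of the 10. This adaptor gene was 15.5, 8.13, 14.8 and 13.2 FPKM in FF libraries 1 to 4 against 82.3, 60.4, 60.9 and 160 FPKM in FFC libraries 1 to 4. The lowest FFC library was 3.89 times the highest FF library. The means were 12.9 ± 3.33 and 90.8 ± 47 FPKM (SD, n = 4), a log2 difference of 2.64 ± 0.61 (SE), or 6.23-fold on the log2(FPKM + 1) scale. The unadjusted limma p was 0.000827 and the adjusted p 0.496, the smallest of the 10 genes (exact two-sided permutation p = 0.0286). With each library left out in turn the difference was 2.33 to 2.79.

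Nlrp3 (ENSMUSG00000032691, mm9 chromosome 11, 59355070 to 59380458), the sensor, was 3.96, 10.1, 59.2 and 52.4 FPKM in FF libraries 1 to 4 against 19.5, 40.2, 25.3 and 27.4 FPKM in FFC libraries 1 to 4. FF held both the lowest and the highest values, and FFC lay between them. The log2 difference was 0.46 ± 0.84 (SE; limma adjusted p = 0.889), and -0.23 without FF 1. Casp1 (ENSMUSG00000025888, mm9 chromosome 9, 5298517 to 5307265), the protease, was 49.4, 70.8, 20.7 and 5.53 FPKM in FF libraries 1 to 4 against 40, 40.3, 59.9 and 103 FPKM in FFC libraries 1 to 4. FF 4 was far below the other 7 libraries, and the log2 difference of 1.10 ± 0.78 (SE; limma adjusted p = 0.759) was 0.42 without it.

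The order of the 3 inflammasome transcripts was not the same in every library. Casp1 was above Pycard in FF 1, FF 2 and FF 3 and below it in FF 4 and in all 4 FFC libraries. Nlrp3 was above Pycard in FF 2, FF 3 and FF 4 and below it in FF 1 and in all 4 FFC libraries. The Casp1 to Pycard ratio was 3.18, 8.71, 1.4 and 0.419 in FF libraries 1 to 4 against 0.486, 0.667, 0.984 and 0.648 in FFC libraries 1 to 4. These ratios overlapped, and the test found no difference between genotypes for either pair (exact two-sided permutation p = 0.2 for Casp1 to Pycard and 0.0857 for Nlrp3 to Pycard, on the difference of log2 values; adjusted p = 0.467 for both over the 7 gene pairs computed, which were chosen after the values were seen).

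**Figure D2:**
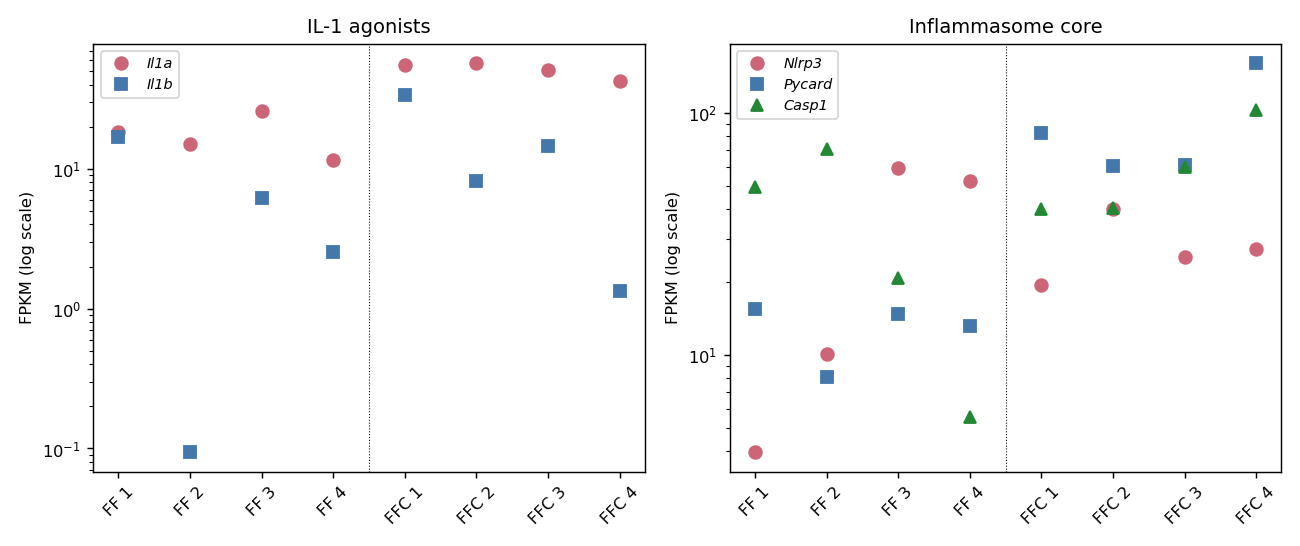
FPKM on a log scale in each library for the 2 interleukin-1 agonist genes (left) and the 3 inflammasome genes (right). Il1a lies above Il1b in all 8 libraries, and Pycard is the highest of the 3 inflammasome genes in all 4 FFC libraries and in no FF library.

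By mean log2(FPKM + 1) the order of the 10 genes in FF was Casp1, Nlrp3, Il1a, Pycard, Il18, Tnfrsf1b, Il1b, Il1rn, Tnf and Il6. In FFC it was Pycard, Casp1, Il1a, Tnfrsf1b, Nlrp3, Tnf, Il18, Il1rn, Il1b and Il6. Pycard was at rank 4 in FF and rank 1 in FFC, and Tnf at rank 9 and rank 6. Neighbours in either order had overlapping ranges over the 4 libraries, apart from Nlrp3 (at least 19.5 FPKM) and Tnf (at most 17 FPKM) in FFC. FFC 3 held the highest value of Il1rn, Il18 and Il6, FFC 4 that of Pycard, Casp1 and Tnfrsf1b, FFC 2 that of Il1a and Tnf, and FFC 1 that of Il1b. Only Nlrp3 was highest in an FF library. FF 4 held the lowest value of Il1a, Il6, Casp1 and Tnfrsf1b, and FF 2 that of Il1b, Tnf and Pycard.

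**Figure D3:**
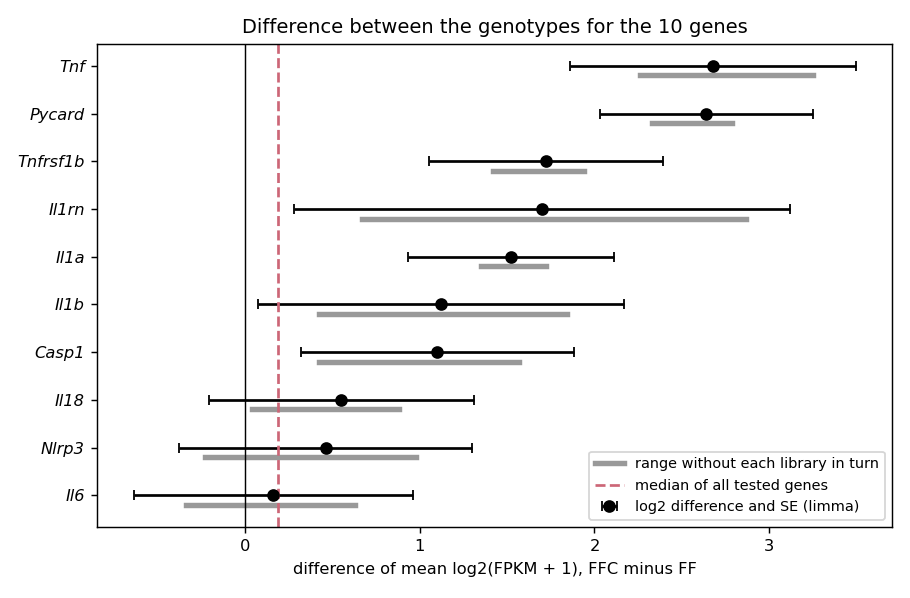
Difference of mean log2(FPKM + 1), FFC minus FF, with its SE from limma (points and bars) and its range when each library is left out in turn (grey), for the 10 genes. The dashed line is the median of all tested genes, 0.19, and the estimates run from 0.16 for Il6 to 2.68 for Tnf.

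The separation of the 4 genes was looked at under other choices. Leaving out libraries cannot make separated groups overlap, so the lack of overlap of all 4 without FF 2 and FF 4 was fixed in advance. Of all tested genes, 7.22% then lay wholly above in FFC. Without FF 2 and FF 4 the log2 differences of the 4 genes were 1.18 (Il1a), 1.96 (Tnf), 1.42 (Tnfrsf1b) and 2.39 (Pycard). Quantile normalization left all 4 separated, against 2.71% of genes. Upper-quartile scaling, which lowers the values of FFC 4, left 2, Tnfrsf1b and Pycard, against 2.22% of genes. After it Il1a was 22.9 in FFC 4 and 26.7 in FF 3, and Tnf was 6.58 in FFC 4 and 7.03 in FF 3, in scaled FPKM.

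The library titles carry a date-like string, and what it dates is not stated. Its month is November for FF 1, FF 2, FF 3 and FFC 1 and December for the other 4, so month and genotype are partly tied. By the day in the string, FF 1, FF 2 and FF 3 come before all 4 FFC libraries. FF 4 falls between FFC 3 and FFC 4. Genotype is thus tied more closely to this order than to month, and a term for month does not take it up. Within November, FFC 1 was above all 3 FF libraries for Il1a, Tnf, Tnfrsf1b and Pycard. Within December all 3 FFC libraries were above FF 4 for each of these. Both orders follow from the lack of overlap in these 4 genes, so they are no separate check on month. With month as a covariate the 4 log2 differences were 1.74 (Il1a), 2.68 (Tnf), 1.75 (Tnfrsf1b) and 2.61 (Pycard), and Nlrp3 turned to -0.16. Within each sex the FFC libraries were likewise above the FF libraries, only because the groups of these 4 genes do not overlap at all. The interaction of sex and genotype was called for none of the 10 genes (smallest unadjusted p = 0.169) and for 0 of all genes (limma, smallest adjusted p = 0.104; 567 genes at an unadjusted p under 0.05).

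RefSeq promoter windows are shown for the 4 genes that separated the genotypes together, and for Il1b as the neighbour of Il1a that did not. Each holds the 250 bases before the annotated start in GRCm38.p6, a later build than the mm9 of the deposited table, 5′ to 3′ on the gene's strand. Capitals mark matches, on either strand, to the NF-kB consensus, the AP-1 site TGANTCA, the TATA box TATAAA or the interferon-stimulated response element (GAAA, any 2 bases, GAAA).
Il1a (chr2:129309973-129310222, minus strand): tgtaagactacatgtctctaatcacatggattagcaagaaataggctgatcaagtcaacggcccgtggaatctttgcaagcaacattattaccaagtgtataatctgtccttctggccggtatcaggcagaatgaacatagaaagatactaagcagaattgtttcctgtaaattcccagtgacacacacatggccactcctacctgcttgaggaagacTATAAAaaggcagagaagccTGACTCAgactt
Il1b (chr2:129371140-129371389, minus strand): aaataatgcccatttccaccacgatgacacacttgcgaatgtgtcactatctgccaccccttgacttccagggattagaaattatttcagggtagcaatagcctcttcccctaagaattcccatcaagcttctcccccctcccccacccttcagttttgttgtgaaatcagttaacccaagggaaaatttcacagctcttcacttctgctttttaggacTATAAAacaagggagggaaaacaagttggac
Tnf (chr17:35202008-35202257, minus strand): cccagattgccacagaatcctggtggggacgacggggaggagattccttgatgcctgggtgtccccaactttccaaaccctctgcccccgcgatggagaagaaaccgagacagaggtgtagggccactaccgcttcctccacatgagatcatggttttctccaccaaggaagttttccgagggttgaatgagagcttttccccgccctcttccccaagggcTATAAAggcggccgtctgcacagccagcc
Tnfrsf1b (chr4:145246871-145247120, minus strand): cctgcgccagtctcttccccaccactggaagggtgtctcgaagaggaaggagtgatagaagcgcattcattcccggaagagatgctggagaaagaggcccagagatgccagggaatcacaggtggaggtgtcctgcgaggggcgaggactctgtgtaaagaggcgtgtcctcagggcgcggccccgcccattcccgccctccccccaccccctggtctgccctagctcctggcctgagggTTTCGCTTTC
Pycard (chr7:127993868-127994117, minus strand): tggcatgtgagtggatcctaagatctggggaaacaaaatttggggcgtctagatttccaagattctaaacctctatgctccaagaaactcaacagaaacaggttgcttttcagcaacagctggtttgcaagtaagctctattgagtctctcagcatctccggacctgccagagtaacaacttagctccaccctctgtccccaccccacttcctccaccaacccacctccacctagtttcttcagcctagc

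All 10 genes had a window in RefSeq. The ligand genes Il1a, Il1b and Tnf have TATAAA close to the start, beginning 32, 31 and 29 bases before the start. Il18 has it farther away, beginning 175 bases before the start, and on the other strand. Of all 32851 windows, 12.4% hold these letters. The AP-1 letters stand in Il1a, beginning 12 bases before the start, in Il1rn and in Il6, and in 6.75% of all windows. The NF-kB consensus was matched in Il6 and in 1 of the 2 starts of Nlrp3, and in 7.25% of all windows. The interferon-stimulated element was matched in Tnfrsf1b alone of the 10 genes and in 2.98% of all windows. The Pycard window held none of the 4 motifs. None of the 4 motifs stands in all of the separated genes, and a window of this length says nothing of sites farther away.

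The wider pathway was described with 4 lists of other genes, to be read beside the median of 0.19 and the 56.7% of higher means over all tested genes. In the first, receptors and other ligands of the interleukin-1 and interleukin-6 families, 17 of 21 named symbols were in the table (4 symbols are newer names of genes listed under an older one) and 12 were tested. Of these 6 had a higher and 6 a lower mean in FFC, with a median of -0.02, and 0 passed over all genes. The largest difference was that of Il18bp, a secreted protein that binds and blocks interleukin-18. It was 2.3, 0.666, 2.05 and 10.7 FPKM in FF libraries 1 to 4 against 150, 4.26, 49.7 and 18.8 FPKM in FFC libraries 1 to 4, with FF 4 above FFC 2 (log2 difference 3.00 ± 1.03, SE; limma adjusted p = 0.712). Il33, an interleukin-1 family alarmin, was 131, 0.204, 14.5 and 28.1 FPKM in FF against 0, 0.0179, 19 and 0 FPKM in FFC (log2 difference -2.94 ± 1.39, SE; limma adjusted p = 0.759). The interleukin-6 receptor Il6ra was 12.9 ± 9.18 FPKM in FF against 24.4 ± 7.84 FPKM in FFC (SD, n = 4), with overlap. The signalling receptor Il1r1 was low, at 0.0321 to 3.98 FPKM over the 8 libraries.

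Of 24 tested genes (of 26 in the table) of tumour necrosis factor signalling, 20 had a higher and 4 a lower mean in FFC, with a median of 0.66, and 0 passed over all genes. Traf5, a receptor-associated adaptor, was 2.67, 6.07, 0.472 and 1.77 FPKM in FF against 8.34, 22.5, 4.74 and 125 FPKM in FFC, where FFC 3 was below FF 2. Adam17, the protease that sheds tumour necrosis factor from the membrane, was 20.5 ± 7.78 FPKM in FF against 47.2 ± 14.8 FPKM in FFC (SD, n = 4; exact two-sided permutation p = 0.0571; limma adjusted p = 0.759), with FFC 1 below FF 3. The 2 genes of this list without overlap were lower in FFC, where 1.29% of all tested genes were. Fam105b, which encodes the linear ubiquitin hydrolase OTULIN, was 30.7, 29.3, 41.4 and 14 FPKM in FF against 10.1, 1.12, 8.62 and 10.4 FPKM in FFC (log2 difference -1.97 ± 0.77, SE; limma adjusted p = 0.712). Traf1, named after its values were seen, was at most 0.151 FPKM in FFC and at least 0.582 FPKM in FF. Ltb and Lta flank Tnf, 3060 and 1157 bases away, and neither lay wholly above in FFC. Ltb, a lymphotoxin subunit, was 0.267, 0, 3.39 and 6.44 FPKM in FF against 0, 0, 9.3 and 2.87 FPKM in FFC. Lta, the other lymphotoxin subunit, was at most 1.82 FPKM (FF 4) and listed at 0 in all 4 FFC libraries.

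Of 12 adaptors and kinases downstream of the interleukin-1 receptor, all tested, 9 had a higher and 3 a lower mean in FFC, with a median of 0.44, and 0 passed over all genes. The receptor-associated kinase Irak2 was 56.1, 40.9, 48 and 25.7 FPKM in FF against 74.1, 58.1, 97.8 and 71.3 FPKM in FFC. The IkB kinase subunit Chuk was 39, 20.1, 32.1 and 28.7 FPKM in FF against 84.8, 44, 45.6 and 72.8 FPKM in FFC. Both were separated narrowly, the lowest FFC library at 1.03 and 1.13 times the highest FF library (limma adjusted p = 0.759 for each). They were 2 of the 12, where 3.05% of all tested genes lay wholly above in FFC. Ikbkb, the partner subunit of Chuk, overlapped, at 38.7 ± 30 FPKM in FF against 62.3 ± 22.4 FPKM in FFC (SD, n = 4).

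Of 16 tested (of 21 in the table) inflammasome sensors, activators and effectors, 10 had a higher and 6 a lower mean in FFC, with a median of 0.42, and 0 passed over all genes. Casp12, an inflammatory caspase gene, was 0.288, 0.326, 6.39 and 0.194 FPKM in FF libraries 1 to 4 against 79.4, 12.3, 9.15 and 13.8 FPKM in FFC libraries 1 to 4. The groups did not overlap, though FF 3 came near FFC 3, and the log2 difference was 3.34 ± 0.94 (SE; exact two-sided permutation p = 0.0286; limma adjusted p = 0.605). It was the 1 gene of the 16 so separated, beside 3.05% of all tested genes. It lies in 1 cluster on chromosome 9 with Casp4 and Casp1, with gaps of 8646 bases to Casp4 and 1562 bases from Casp4 to Casp1. Casp4, the caspase that senses cytosolic lipopolysaccharide, was 26.9 ± 4.23 FPKM in FF against 49.2 ± 27.9 FPKM in FFC (SD, n = 4) and overlapped, as Casp1 did. Near-identical stretches of these caspases could share reads. The sensor Nlrp1b was 1.96, 1.61, 1.52 and 8.92 FPKM in FF against 9.37, 7.39, 22.7 and 24.6 FPKM in FFC, where FF 4 exceeded FFC 2, and Card9 overlapped at 69 ± 48.5 and 149 ± 104 FPKM (SD, n = 4). Adam17, Traf5, Ikbkb and Card9 overlap other genes of the table, so their reads could be shared. Gsdmd, whose product forms the pore through which interleukin-1β leaves the cell, was 27.2, 28.1, 36.5 and 17 FPKM in FF against 35.3, 47, 41.8 and 72.5 FPKM in FFC, with FFC 1 just below FF 3 (exact two-sided permutation p = 0.0571; limma adjusted p = 0.759).

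**Figure D4:**
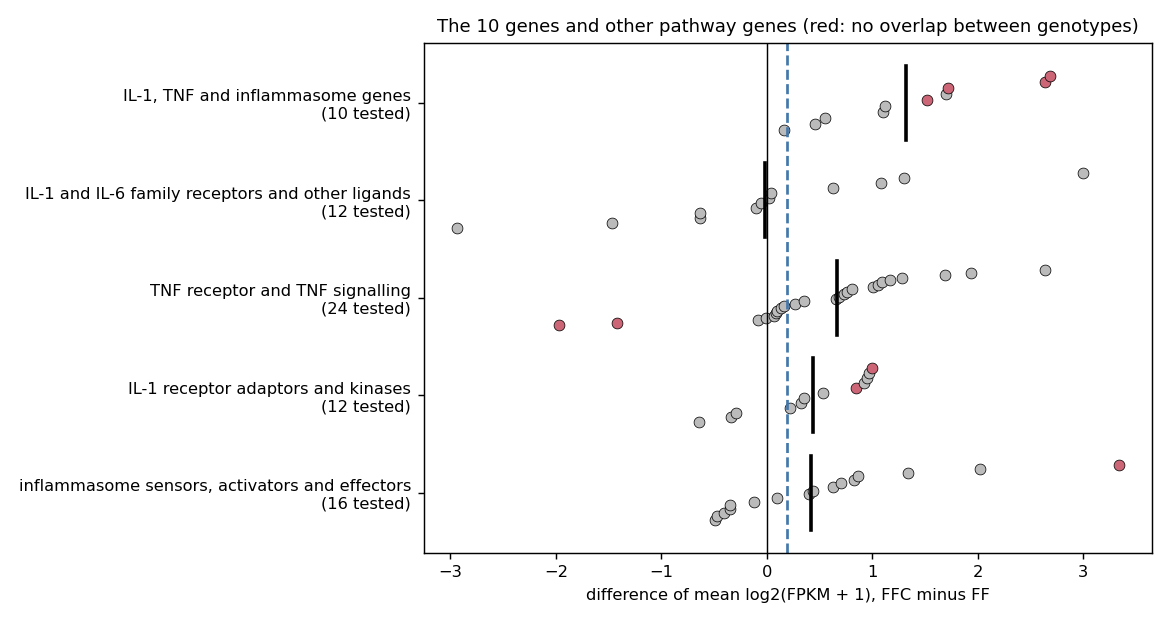
Difference of mean log2(FPKM + 1), FFC minus FF, for each tested gene of the 10 and of the 4 pathway lists, with the list median as a black bar and the median of all tested genes (0.19) as a dashed line. Genes in red have no overlap between the genotypes: 4 of the 10 (higher), 0 of 12, 2 of 24 (lower), 2 of 12 (higher) and 1 of 16 (higher) from top to bottom. Of all tested genes, 3.05% lay wholly higher and 1.29% wholly lower in FFC.

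Neutrophils and monocytes also make interleukin-1, and their markers were not highest where Il1b was. The summed FPKM of 10 neutrophil markers, led by S100a8, was 2814, 253, 395 and 194 in FF libraries 1 to 4. In FFC libraries 1 to 4 it was 7.65, 567, 962 and 111. Of these 10 markers only 2 had a higher mean in FFC, and the median log2 difference was -0.76. Ly6g, 1 of the 2, went against its list. It was listed at 0 in all 4 FF libraries and was 0, 16.8, 132 and 60.8 FPKM in FFC libraries 1 to 4. S100a8 had a log2 difference of -3.29 and S100a9 of -2.70. FFC 1, with the lowest neutrophil sum, was the highest in Il1b (33.5 FPKM), and FF 1, with the highest sum, came next (16.9 FPKM). FFC 1 and FFC 4, with the lowest sums, had 55.4 and 42.2 FPKM of Il1a. FFC 3, the FFC library with the highest sum, was the highest of all libraries in Il1rn (94.9 FPKM), Il18 (40 FPKM) and Il6 (4.02 FPKM). The summed FPKM of 4 monocyte markers, led by Ccr2, was 5.96 to 65.1 in FF and 11.9 to 60.5 in FFC. That of 8 markers of border-associated macrophages, led by Pf4, was 374 to 1223 in FF and 113 to 1089 in FFC. For 8 T cell markers, led by Trac, it was 34.1 to 476 in FF and 15.9 to 58.9 in FFC. Sums of 8 astrocyte markers, led by Slc1a3, were 114 to 320 and 91.6 to 188, and those of 6 oligodendrocyte markers, led by Mbp, were 11.7 to 41.8 and 10.3 to 50.5. Gfap was at most 1.03 FPKM in any library. All these sums overlapped between the genotypes. The part of neutrophils, monocytes and the other cell types in the values of the 10 genes was not tested.

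Tissue dissociation is known to induce immediate-early genes in microglia, together with some inflammatory cytokine genes. All 9 tested genes of an 11-gene dissociation list were higher on average in FFC, at a median log2 difference of 1.75. The summed FPKM of the 11 genes, led by Jun, was 153, 78.2, 869 and 135 in FF libraries 1 to 4 against 189, 840, 825 and 1640 in FFC libraries 1 to 4 (exact two-sided permutation p = 0.114 on the log2 sum). FF 3, the FF library with the highest sum, was also the highest FF library in Il1a, Tnf and Tnfrsf1b, though not in Pycard. The 3 genes of the list with the smallest p, chosen after their values were seen, were Junb, Egr1 and Zfp36. Junb, a subunit of AP-1, was 12.1, 0.209, 43.2 and 1.53 FPKM in FF libraries 1 to 4 against 28.8, 79.4, 47 and 146 FPKM in FFC libraries 1 to 4 (log2 difference 3.31, limma adjusted p = 0.651). Egr1, a transcription factor, was 12.8, 18.1, 104 and 15.3 FPKM in FF against 49.3, 175, 154 and 200 FPKM in FFC (log2 difference 2.31, limma adjusted p = 0.692). Zfp36, whose product destabilizes cytokine transcripts such as that of Tnf, was 27.5, 9.69, 61.7 and 18.7 FPKM in FF against 56.6, 101, 147 and 202 FPKM in FFC (log2 difference 2.22, limma adjusted p = 0.651). In each of these 3 genes FFC 1 was above FF 1, FF 2 and FF 4 and below FF 3, and the other FFC libraries were above all 4 FF libraries. FFC 1 was below FF 1 in Fos and Jun, and its summed level of 189 lay between FF 1 and FF 3. The part of dissociation in the values of the 10 genes was not tested.

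The genes whose order over the 8 libraries was closest to that of the 10 genes' mean standardized level were Ppme1 (a protein phosphatase methylesterase), Tlr13, Got1 (aspartate aminotransferase), Unc45a (a myosin chaperone) and Camta2 (a transcriptional activator), each with a summed rank difference of 2 and chosen from the 8411 genes whose mean reached 5 FPKM. That mean level was below 0 in all 4 FF libraries and above 0 in all 4 FFC libraries, highest in FFC 3 and lowest in FF 4. Tlr13, a sensor of bacterial ribosomal RNA, was 102, 71.9, 72.4 and 71.2 FPKM in FF libraries 1 to 4 against 154, 149, 251 and 142 FPKM in FFC libraries 1 to 4. With 8 libraries and so many genes such closeness is a description of these libraries only.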

How the data were processed

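The authors deposited 1 table of FPKM values with a column per library. Per the submitters' processing notes the tools were Cufflinks 2.0.2, TopHat2 2.0.4, CASAVA 1.8.2 and Bowtie2 2.0.0, their roles not stated, and the build was mm9. Which gene annotation was used was not given in the sources used here. Per the labels' protocols, RNA of sorted cells was DNase treated and cDNA was made with the Ovation method. Low FPKM values showed no whole-read steps (the fullest bin of the log10 ratio of FF 1 to FF 2, 0.01 wide, held 1.89% of 3015 low genes), so depth is unknown.

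Of 37447 genes, 447 with a missing value were left out, and 17753 with a mean of at least 1 FPKM were tested as log2(FPKM + 1) with limma 3.58.1 in R 4.3.3 (empirical Bayes with trend, two-sided, Benjamini-Hochberg over all genes, threshold 0.05). Differences on this scale understate the change of low genes. An exact 0 can be a failed estimate. Exact permutation tests used the 70 arrangements of 4 and 4 libraries. Table starts count from 0 (21397 genes then have their GENCODE M21 length, 419 otherwise) and are printed from 1. Python 3.11.15 did the rest. Of the tests, only the limma comparison of FFC with FF was checked on simulated data.

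The 10 genes and the lists were chosen with earlier results of these data known. Named besides the 10 were the 3 genes of each pathway list with the smallest p, the leading gene of each marker list and the 5 genes closest in library order; Tnfrsf1a, Il1r1, Lta, Ltb, Casp4, Gsdmd, Traf1 and other single markers were named after their values were seen. The alternatives were pseudocounts of 0.1 and 5, no filter or a minimum mean of 5 FPKM, quantile and upper-quartile scaling, terms for sex, month or replicate number, leaving out each library and, added later, leaving out FF 2 and FF 4. One marker gene of the microglial list is not reported here and was left out of its sums.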

Additional observations from a re-analysis of the deposited data

Results flagged for a closer look

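Of 44 gene and genotype pairs, 4 held a library far from the other 3 of its group on the log2(FPKM + 1) scale, where chance gives about 1 in 20. None was among the 10 genes. Il33 was 4.32 in FFC 3 while the other FFC libraries were near 0. Fam105b was 1.09 in FFC 2, below the other 3. Casp12 was 2.89 in FF 3 and Nlrp1b was 3.31 in FF 4, each above the other 3 FF libraries.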

How the results depend on the processing

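Under the 18 alternatives none of the 10 genes passed, and Il1a, Il1rn, Il18, Tnf, Pycard, Casp1 and Tnfrsf1b kept a higher mean in FFC in all of them. Leaving out 1 library at a time gave 0 to 1 called genes of all tested, 9 to 10 of the 10 genes higher in FFC and a median difference of 1.00 to 1.62. In those fits Il6 ranged from -0.34 to 0.63 and Nlrp3 from -0.23 to 0.98. Without FF 2 and FF 4, chosen after the data were seen, 8 of 10 genes were higher, with Il1b at -0.14 and Il6 at -0.28. With month as a covariate the median was 1.74 and Nlrp3 was -0.16. The cause was not tested. Il6 could not be given at a mean of at least 5 FPKM, since it was not tested there. The median of all genes was 0.19 as deposited and 0.02 and 0.03 after upper-quartile and quantile scaling, and relative to it the median of the 10 genes was 1.14, 1.17 and 1.18.

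Same-numbered libraries did not deviate together (correlations of -0.041, 0.034, -0.009 and -0.052). These values gave no sign of a pairing by number but cannot exclude one. Libraries of the same number were of the same sex in both genotypes. A replicate block gave 0 called genes, a median difference of 1.32 and a smallest adjusted p of 0.789 among the 10 genes, and changed no call.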
